A study of Mus musculus with 8 samples.

Results

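The smooth muscle contractile genes described here are 9 genes, Acta2, Actg2, Myh11, Myl9, Tpm1, Tpm2, Tagln, Cnn1 and Des, out of 20312 gene rows listed over all plates. They were listed by symbol and not by a cut on measured values, though earlier results of these data were known. All 9 were listed on 6 of the 8 plates, while Myh11 and Cnn1 had no row on FibCtrl 2 and Cnn1 had none on FibΔZeb1 3. Cells came from primary mouse colon tumors that grew after mouse colon tumor organoids were placed into the cecum wall, and were sorted singly into 384-well plates for SORT-seq, which counts the 3′ ends of transcripts with unique molecular identifiers. There were 4 FibCtrl and 4 FibΔZeb1 plates, 1 mouse per plate.

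FibΔZeb1 mice carried a tamoxifen-inducible Cre driven from a type I collagen gene, which the labels name Col1a1Cre-ERT2 and the methods of the study Col1a2-CreERT2, together with floxed Zeb1. FibCtrl mice were Cre-negative littermates. All mice received the tamoxifen diet, and all received organoids of the same kind. Zeb1 was targeted in host cells that use the collagen promoter and not in the transplanted tumor cells. Stromal wells had been gated as negative for EPCAM, CD45 and CD31, which leaves pericytes, mesothelial cells and smooth muscle cells in the same gate as fibroblasts. Which gate a given well came from did not enter the work. Classes were rebuilt from marker genes after clustering without the 9 genes, and are named "like" in that sense only.

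Smooth muscle shortens when myosin filaments pull on actin filaments, which tropomyosin and calponin cover and which intermediate filaments tie together. Fibroblasts that take on part of this program are called myofibroblasts, and alpha smooth muscle actin, the product of Acta2, is their customary marker in tumors. Pericytes, the contractile cells on small vessels, carry many of the same genes, so the full set, rather than 1 gene, separates these cells from smooth muscle proper. Serum response factor drives many of the genes through a short sequence called the CArG box.

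The 9 genes lie on 7 different mouse chromosomes (GRCm38, GENCODE M21). The actins are Acta2 (chromosome 19, 34241090 to 34255590, minus strand) and Actg2 (chromosome 6, 83512905 to 83536265, minus strand). The myosin subunits are Myh11, the heavy chain (chromosome 16, 14194535 to 14291372, minus strand), and Myl9, a regulatory light chain (chromosome 2, 156775420 to 156781658, plus strand). The tropomyosins are Tpm1 (chromosome 9, 67022590 to 67049406, minus strand) and Tpm2 (chromosome 4, 43514711 to 43523765, minus strand). The actin-binding proteins transgelin and calponin 1 are encoded by Tagln (chromosome 9, 45929619 to 45936058, minus strand) and Cnn1 (chromosome 9, 22099216 to 22109630, plus strand), and desmin by Des (chromosome 1, 75360329 to 75368579, plus strand). Tagln overlaps Pcsk7 and Gm48529, and Des overlaps Gm15179, each on the opposite strand. Whether counting used the strand is not given in the sources used here, so the levels of both are uncertain to that extent. In the last 500 bases of their transcripts the members shared no stretch of 31 bases with their close relatives, except 2 between Actg2 and Actc1.

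Promoters of 6 members were listed by RefSeq (Acta2, Myl9, Tpm1, Tpm2, Cnn1 and Des; GRCm38.p6, 250 bases before to 50 after the start). Both that held a CArG box or a variant of it are shown 5′ to 3′ on the gene's own strand, because this sequence is the best known link between the members. Capitals mark the CArG box in Myl9 (chr2:156775214-156775513, plus strand) and, in Acta2 (chr19:34255324-34255623, minus strand), the CArG boxes with 1 G or C in their core.
Myl9: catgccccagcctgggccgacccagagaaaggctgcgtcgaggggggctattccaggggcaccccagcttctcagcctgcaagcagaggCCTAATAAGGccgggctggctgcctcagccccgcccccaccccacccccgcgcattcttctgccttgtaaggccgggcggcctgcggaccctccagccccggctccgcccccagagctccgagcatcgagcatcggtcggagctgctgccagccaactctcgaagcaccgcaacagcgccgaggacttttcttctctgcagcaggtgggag
Acta2: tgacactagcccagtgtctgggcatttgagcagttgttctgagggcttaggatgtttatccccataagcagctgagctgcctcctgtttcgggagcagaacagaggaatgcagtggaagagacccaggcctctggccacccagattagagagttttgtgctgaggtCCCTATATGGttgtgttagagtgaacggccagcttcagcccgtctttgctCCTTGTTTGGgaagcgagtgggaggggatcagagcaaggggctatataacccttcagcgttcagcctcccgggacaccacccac

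Both strands were searched. The CArG box was found in Myl9 alone, starting 161 bases upstream, and in 535 of all 32851 promoters (1.63%). The variant with 1 G or C in its core was found in Acta2, starting 84 and 34 bases upstream, in Myl9, starting 99 bases upstream, and in 2792 of all promoters (8.50%). The E-box CACCTG, the type of site that Zeb1 is known to bind, was found in Myl9 alone, on the reverse strand starting at base 41 after the start, and in 6640 of all promoters (20.2%). It does not overlap the CArG sequences. Tagln, Actg2 and Myh11 had no promoter entry.

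Of 3072 wells, 2051 held at least 500 transcripts, spike-in and mitochondrial rows excluded, and 1831 were kept after a limit on the mitochondrial share. Total transcripts per plate ranged from 981881 on FibCtrl 2 to 5905188 on FibCtrl 1, and FibCtrl 2 stood apart with 98 kept wells and a median of 221 transcripts per well. The classes held 147 fibroblast-like, 24 pericyte-like, 26 mesothelial-like, 392 epithelial-like and 741 immune-like wells, with median depths of 18516, 15191, 15786, 27344 and 2875 transcripts. A further 454 wells stayed unnamed, and 47 wells of stromal clusters were set aside because Ptprc, the gene for CD45, or Epcam reached 2 transcripts in them. The 384 well numbers are the same on every plate by design, so shared barcodes are not shared cells.

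The classes differed in number between plates, which limits every comparison. Fibroblast-like wells numbered 47, 3, 9 and 26 on FibCtrl 1 to 4 and 24, 6, 17 and 15 on FibΔZeb1 1 to 4. Pericyte-like wells reached 5 only on FibCtrl 1 (8 wells) and FibΔZeb1 1 (14), and mesothelial-like wells only on FibCtrl 3 (10) and FibΔZeb1 4 (9). These 2 classes therefore had 1 plate per genotype and no replicate.

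Levels are given in CPM, the UMI-counted transcripts of a gene per 1000000 transcripts of the class on a plate. Classes were named from these same marker lists, so the marker levels describe the classes and do not check the names. Pericyte-like wells held all 9 pericyte markers, and mesothelial-like wells all 8 mesothelial markers. Both also held all 10 fibroblast markers, at 28748 and 43135 CPM. Mesothelial-like wells held their own list at 2033 CPM, and 0 of the cluster's 10 leading genes were mesothelial markers. Fibroblast-like wells held all 10 fibroblast markers at a summed 74008 CPM, but also all 9 pericyte markers at 460 CPM, against 6592 CPM in pericyte-like wells. No class was called smooth muscle. The 7 smooth muscle markers kept outside the members (Synpo2, Lmod1, Myocd, Kcnmb1, Pln, Ldb3 and Hspb6) summed to 24.9 CPM in fibroblast-like wells, 104 in pericyte-like and 22.5 in mesothelial-like wells. Pln, the cardiac and smooth muscle calcium pump regulator, was at 0 in all 3 stromal classes, and Myocd, the coactivator of the smooth muscle program, was at 0 in pericyte-like and mesothelial-like wells.

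Zeb1 itself was low. In fibroblast-like wells it read 93.0, 0, 0 and 83.4 CPM on FibCtrl 1 to 4 and 43.6, 44.0, 48.0 and 28.3 on FibΔZeb1 1 to 4. The zeros on FibCtrl 2 and FibCtrl 3 stand on 79909 and 73126 transcripts in all and allow up to 46.2 and 50.5 CPM (exact Poisson, 95%). FibCtrl 1 and FibCtrl 4 lay above every FibΔZeb1 plate. Over all stromal wells FibCtrl 3 read 23.6 CPM from 8 transcripts, below the 23.9 to 44.5 of the FibΔZeb1 plates. Which part of Zeb1 is removed is not given in the sources used here, and a 3′ count outside that part would not check the deletion.

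These 3′ counts do not grow with transcript length. Classes were made from other genes of the same wells, so differences between classes are described without a test. In bulk sums of wells, fewer expressing cells and less RNA per cell cannot be told apart, and shares of wells are therefore given as well.

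The 9 genes together were highest in pericyte-like and fibroblast-like wells. Their sum averaged 4355 CPM over the 2 pericyte-like plates (2420 on FibCtrl 1 and 6290 on FibΔZeb1 1) and 3471 ± 2336 (SD, n = 7 plates) in fibroblast-like wells. Mesothelial-like wells followed at 1641, with 2775 on FibCtrl 3 and 507 on FibΔZeb1 4. Epithelial-like wells averaged 363 ± 154 (SD, n = 8). These ranges overlapped between pericyte-like, fibroblast-like and mesothelial-like wells, and the fibroblast-like range (667 to 6995) lay above the epithelial-like range (199 to 597).

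The order of the first 2 classes turned when pooled sums were read within plates. The 2 plates with pericyte-like wells were also those with the largest fibroblast-like sums. On FibCtrl 1 the fibroblast-like sum was 5231, against 2420 in pericyte-like wells, and on FibΔZeb1 1 it was 6995 against 6290. Within each plate the pooled fibroblast-like sum was thus the higher, and it was also above the mesothelial-like sum on both plates with enough of each. Deep wells weigh most in pooled sums, and 1 well held 1952 of the 5287 transcripts on FibCtrl 1. The mean over wells was 3235 in fibroblast-like and 3314 in pericyte-like wells there, and 7191 and 5623 on FibΔZeb1 1.

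**Figure D1:**
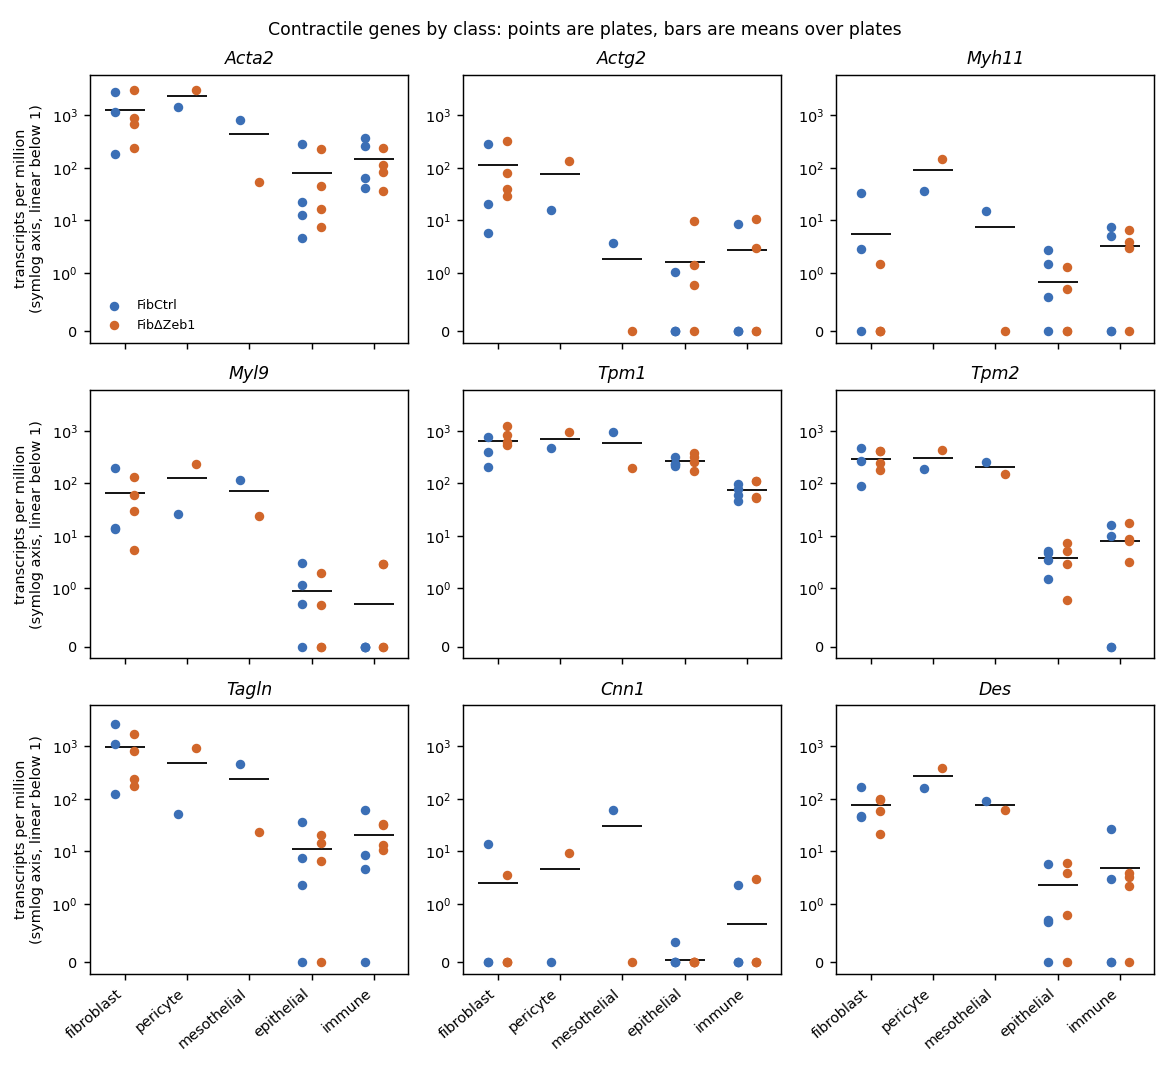
Level of each of the 9 genes (vertical axis, CPM, symmetric log scale that is linear below 1) in 5 marker-named classes (horizontal axis). Each point is a plate with at least 5 wells of the class, blue for FibCtrl and orange for FibΔZeb1, and each bar is the mean over plates; Tpm1 is the only gene above 100 on all plates of the epithelial-like class, at 170 to 379.

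Acta2, which encodes alpha smooth muscle actin, had the highest mean of the members in fibroblast-like wells (1292 ± 1177 CPM, SD, n = 7 plates). On 4 of the 7 plates another member was higher, Tagln on FibCtrl 3 and Tpm1 on FibCtrl 4, FibΔZeb1 2 and FibΔZeb1 3. Acta2 read 2776, 1180 and 182 CPM on FibCtrl 1, 3 and 4 and 3088, 675, 241 and 906 on FibΔZeb1 1 to 4. FibΔZeb1 1 and FibCtrl 1 were the highest plates and FibCtrl 4 the lowest, and the groups overlapped. Pericyte-like wells held 1476 on FibCtrl 1 and 3108 on FibΔZeb1 1, and all 24 of them had at least 1 Acta2 transcript. Mesothelial-like wells held 814 on FibCtrl 3 and 54.6 on FibΔZeb1 4.

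Actg2, the gamma actin of enteric smooth muscle, was about an order of magnitude lower. In fibroblast-like wells it read 20.8, 287 and 5.75 on FibCtrl 1, 3 and 4 and 329, 29.3, 39.1 and 81.3 on FibΔZeb1 1 to 4. The high FibCtrl 3 value rests on 21 transcripts in 9 wells, 13 of them in 1 well, and the 95% Poisson interval ran from 178 to 439. The FibΔZeb1 4 value rests on 23 transcripts in 2 of 15 wells, 14 of them in 1 well, without which it read 34.5. On FibCtrl 1, FibΔZeb1 1 and FibΔZeb1 3, 1 well held 10 of 21, 74 of 226 and 9 of 22 transcripts. Pericyte-like wells held 15.5 and 135 on FibCtrl 1 and FibΔZeb1 1. Mesothelial-like wells held 1 Actg2 transcript in all 26 wells.

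Myh11, the smooth muscle myosin heavy chain and the strictest of these markers for smooth muscle and mural cells, was highest in pericyte-like wells, at 36.1 on FibCtrl 1 and 149 on FibΔZeb1 1. In fibroblast-like wells it read 33.8, 0 and 2.88 on FibCtrl 1, 3 and 4 and 1.45, 0, 0 and 0 on FibΔZeb1 1 to 4. A single well on FibCtrl 1 gave 33 of that plate's 34 transcripts, and without it the plate read 1.05. Without thinning, 12 of 24 pericyte-like wells held Myh11, against 5 of 147 fibroblast-like wells.

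Myl9, the light chain whose phosphorylation switches smooth muscle myosin on, read 200, 13.7 and 14.4 in fibroblast-like wells of FibCtrl 1, 3 and 4 and 132, 29.3, 5.33 and 60.1 on FibΔZeb1 1 to 4. Both plates numbered 1 were the highest of their genotype. Pericyte-like wells held 25.8 and 232, and mesothelial-like wells 117 and 23.4, on their FibCtrl and FibΔZeb1 plates.

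The tropomyosins, which lie along the actin filament, varied least between plates. Tpm1 read 765, 397 and 206 in fibroblast-like wells of FibCtrl 1, 3 and 4 and 1210, 822, 602 and 546 on FibΔZeb1 1 to 4. Tpm2 read 270, 466 and 89.2 in FibCtrl and 421, 176, 244 and 411 in FibΔZeb1, in the same order of plates. For both genes FibCtrl 4 was the lowest plate and the genotypes overlapped. Pericyte-like wells held 469 and 936 of Tpm1 and 186 and 428 of Tpm2.

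Tagln, which encodes transgelin (SM22), an early marker of the contractile program, read 1107, 2612 and 121 in fibroblast-like wells of FibCtrl 1, 3 and 4 and 1715, 176, 242 and 823 on FibΔZeb1 1 to 4. It was higher in fibroblast-like than in pericyte-like wells on both plates that had both, with 51.5 in pericyte-like wells of FibCtrl 1 and 912 on FibΔZeb1 1. Cnn1, a late marker of differentiated smooth muscle, was barely detected at this depth. The 5 plates with the most fibroblast-like wells gave 15 transcripts, 14 of them in 1 well of FibCtrl 1. The highest Cnn1 level of any class was in mesothelial-like wells of FibCtrl 3, at 60.2 CPM from 16 transcripts.

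Des, the intermediate filament protein of muscle, was higher in pericyte-like than in fibroblast-like wells on both plates, as was Myh11 alone of the other members. On FibCtrl 1 Des read 160 in pericyte-like and 44.6 in fibroblast-like wells, and on FibΔZeb1 1 it read 381 against 98.8. Both Des ratios lay between 3.58 and 3.86, while those of Myh11 were 1.07 on FibCtrl 1 and 102 on FibΔZeb1 1. Over the other plates fibroblast-like wells held 164 and 46.1 on FibCtrl 3 and 4 and 58.6, 94.4 and 21.2 on FibΔZeb1 2 to 4.

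In epithelial-like wells Tpm1 was the main member. Tpm1 averaged 264 ± 69.5 CPM (SD, n = 8) there, and it was higher than in immune-like wells on 8 of 8 plates, by 2.37- to 5.17-fold. Tpm1 is made in many non-muscle cells. Acta2 averaged 78.3, Tpm2 3.86, Des 2.23, Actg2 1.65, Myl9 0.96, Myh11 0.85 and Cnn1 0.04 CPM in epithelial-like wells, and Tagln ranged from 0 to 36.9.

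Acta2 in epithelial-like wells followed the plate. It read 288, 4.59, 12.4 and 22.7 CPM on FibCtrl 1 to 4 and 229, 45.6, 7.56 and 16.5 on FibΔZeb1 1 to 4, with both plates numbered 1 far above the rest. Immune-like wells, which should lack the gene, read 365, 262, 40.6 and 64.0 on FibCtrl and 238, 84.1, 36.5 and 115 on FibΔZeb1, above the epithelial-like wells on 8 of 8 plates. In CPM, Acta2 in epithelial-like wells was thus not above a class that should lack it. Epithelial-like wells were deeper (median 27344 against 2875 transcripts), so equal transcripts per well read lower there in CPM. Acta2 transcripts numbered 844 in 54 epithelial-like and 246 in 107 immune-like wells of FibCtrl 1. On FibΔZeb1 1 they numbered 346 in 43 and 242 in 111 wells. FibCtrl 2 ran the other way, with 3 in 17 and 24 in 34 wells, the 24 from 4 wells. Col1a1, a collagen gene of stromal cells, was likewise highest in epithelial-like wells of the plates numbered 1, at 626 and 418 CPM against 55.1 to 179 elsewhere. There Acta2 amounted to 46.0% and 54.8% of Col1a1, against 15.1% and 17.0% in the fibroblast-like wells of those plates. In the pericyte-like wells it amounted to 11.4% and 41.3%, and in the immune-like wells to 34.05% and 36.91%. The part of free RNA in these values was not tested.

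The other genes of the contractile machinery were taken from a list of 59 genes by role, of which Mrtfa and Mrtfb had no row under those symbols, and the 3 highest of each role in stromal wells (fibroblast-like, pericyte-like and mesothelial-like together) are named. The cytoplasmic actins Actb and Actg1 reached 4757 and 3204 CPM, while the skeletal actin Acta1 was at 2.03. The non-muscle myosin genes Myl6, Myl12a and Myh9 reached 1456, 825 and 636. Cald1, which encodes caldesmon, reached 920, Tpm4 778 and Tagln2 650. The list leaves out the members, so it cannot show whether most of the abundant machinery was of the non-muscle type. Pooled over fibroblast-like wells, the members Acta2, Tagln and Tpm1 reached 1613, 854 and 677 CPM, and the other members were lower. Myl12a and Myh9 reached 799 and 667 there, and Actb and Actg1 4736 and 3267.

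Among the crosslinkers, filamin A (Flna) reached 597, alpha-actinin 1 (Actn1) 558 and talin 1 (Tln1) 280 CPM. Among intermediate filament and dense body genes, vimentin (Vim) reached 4547, Hspb1 456 and Cryab 132. Hspb1, a small heat shock protein gene, stood at 1690 in mesothelial-like wells against 266 in fibroblast-like wells. Rhoa, Rhob and Rock2, which control the myosin phosphatase, reached 432, 327 and 247. The transcription factor genes Tead1, Gata6 and Srf reached 207, 106 and 58.3, and the membrane and calcium genes Cav1, Atp2b4 and Prkg1 reached 103, 61.0 and 19.7.

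Genes that marked pericyte-like wells within this list, picked after their values were seen, included the myosin light chain kinase gene Mylk, at 643 CPM there against 131 in fibroblast-like wells. The phosphatase inhibitor gene Ppp1r14a read 83.2 against 6.64, and Kcnmb1, a potassium channel subunit gene of smooth muscle, 78.6 against 9.82.

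Co-detection was measured after each well was thinned to 2000 transcripts, because deeper wells show more genes. Pericyte-like wells held the most members, with a mean of 3.46 of 9 (24 wells), followed by fibroblast-like wells with 1.99 (136 wells, 11 left out as too shallow) and mesothelial-like wells with 1.54 (24 wells, 2 left out). Epithelial-like wells held 0.61 (385 wells, 7 left out) and immune-like wells 0.50 (527 wells, 214 left out). Without thinning the means were 5.88, 3.95, 3.85, 1.96 and 0.84 in the same order.

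At least 5 members were found in 7 of 24 pericyte-like wells (29.2%), 14 of 136 fibroblast-like wells (10.3%) and 1 of 24 mesothelial-like wells, and in 0 of 385 epithelial-like and 0 of 527 immune-like wells, which allows shares of up to 0.779% and 0.569%. No member was found in 28 fibroblast-like wells (20.6%), and in no pericyte-like well was that so. Fibroblast-like wells therefore ranged from no member to 6 at equal depth.

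**Figure D2:**
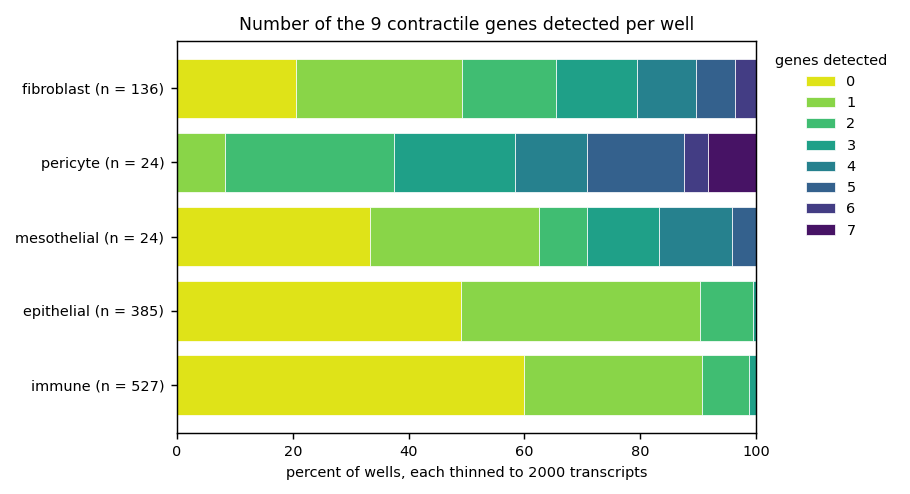
Share of wells (horizontal axis, percent) by how many of the 9 genes were detected (color, from 0 to 7) in each class (vertical axis) after thinning every well to 2000 transcripts. Wells with 5 or more genes make up 29.2% of pericyte-like wells, 10.3% of fibroblast-like wells and none of the epithelial-like or immune-like wells.

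By gene, the thinned share of wells with Acta2 was 91.7% in pericyte-like, 47.8% in fibroblast-like, 33.3% in mesothelial-like and 15.6% in epithelial-like wells, and 25.8% in immune-like wells as background. Col1a1 was found in 54% of immune-like wells at the same depth. Tagln was found in 41.2% of fibroblast-like and 33.3% of pericyte-like wells, against 5.69% of immune-like wells. Desmin transcripts were found in 45.8% of pericyte-like but 6.62% of fibroblast-like wells, against 1.90% of immune-like wells. Myh11 was found in 3 of 24 pericyte-like and 1 of 136 fibroblast-like wells. Cnn1 was found in 0 of 136 fibroblast-like wells, which allows a share of up to 2.21%, and in 1 of 24 mesothelial-like wells.

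Tpm1 behaved differently, since its share in epithelial-like wells, 42.3%, was close to the 48.5% of fibroblast-like wells and above the 13.1% of immune-like wells. Of the 163 epithelial-like wells with Tpm1, 31 also had Acta2 and 4 had Tagln.

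In fibroblast-like wells the pairs found together most often were Acta2 with Tagln and Acta2 with Tpm1, each in 42 of 136 wells. For Tagln that is 64.6% of the 65 wells with Acta2 and 75% of the 56 wells with Tagln. The rarer members sat within the wells with Tagln, as 13 of 14 wells with Actg2 and 13 of 16 wells with Myl9 also had it. In pericyte-like wells all 8 wells with Tagln, all 11 with Tpm2 and all 4 with Actg2 had Acta2 as well, and 9 of 11 wells with Des did. Des was found alongside Tagln in 6 fibroblast-like wells, of 9 with Des and 56 with Tagln, and in 4 pericyte-like wells, of 11 with Des and 8 with Tagln.

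**Figure D3:**
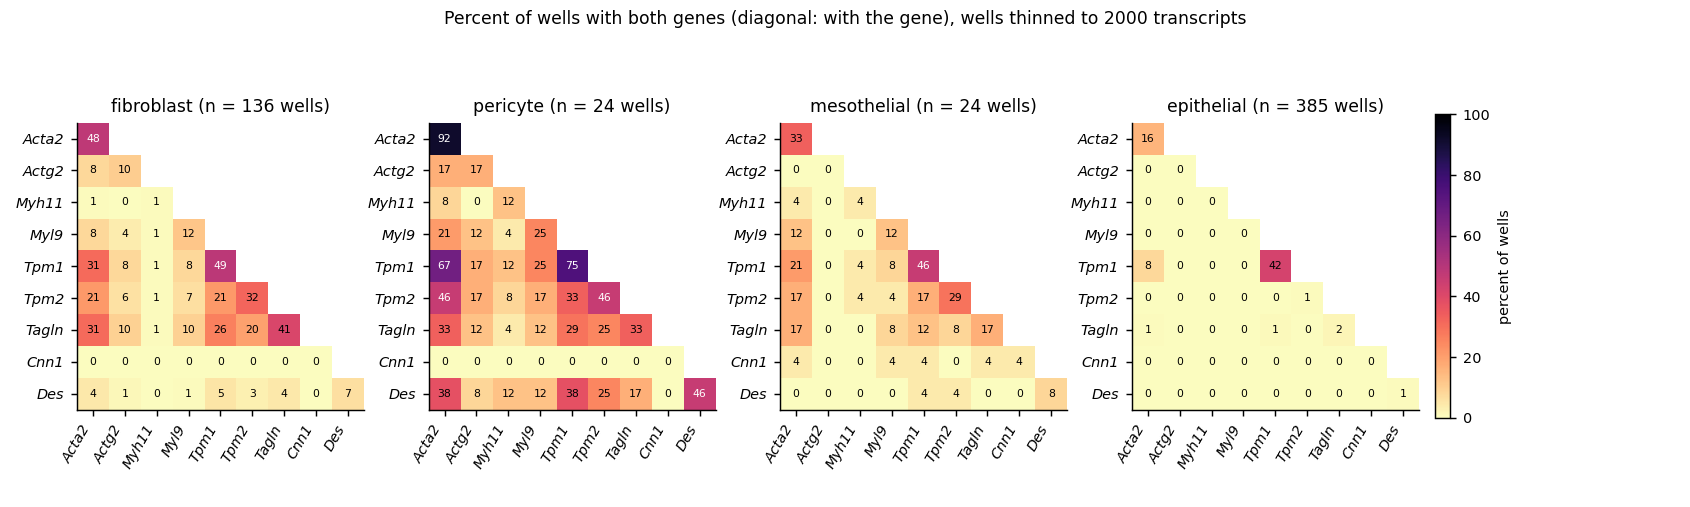
Percent of wells in which both genes of a pair were detected (color and printed number), with the share for each single gene on the diagonal, in 4 classes thinned to 2000 transcripts per well. Acta2 with Tagln fills 31% of fibroblast-like and 33% of pericyte-like wells, and only Acta2 and Tpm1 exceed 2% on the epithelial-like diagonal.

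Over the 147 fibroblast-like wells, unthinned, log2(CPM + 50) of Acta2 correlated with Tagln at r = 0.61, with Myl9 at 0.58, with Tpm2 at 0.49 and with Tpm1 at 0.48. Tpm2 and Tagln correlated at 0.56. These wells share 8 plates and differ in depth, so the values are descriptions. Tagln ran against the fibroblast genes Dcn (r = -0.63), which encodes decorin, and Dpt (-0.57), and with Tnc (0.42), which encodes the matrix protein tenascin C. Col1a1 was nearly unrelated to Acta2 (0.11). The value of 0.80 between Myh11 and Cnn1 rests on a single well.

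Fibroblast-like wells fell into 3 clusters, formed without the 9 genes. The cluster led by Dpt and Dcn (66 wells) held the members at 823 CPM in sum, with a median well at 520. The cluster led by Tnc and Col8a1 (34 wells) held 7210, with a median of 3921, and the cluster led by Inhba and Ctgf (47 wells) held 5243, with a median of 2629. Tnc-led wells had the pericyte markers as their next best score (0.72 against 1.42 for fibroblast markers), as did Inhba-led wells (0.71 against 0.80). Neither had a fibroblast marker among its 10 leading genes, so their class name is the less certain.

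At 2000 transcripts per well the mean number of members was 1.0 in the Dpt-led, 3.38 in the Tnc-led and 2.46 in the Inhba-led cluster. Acta2 was found in 29.2%, 79.4% and 51.4% of wells and Tagln in 9.23%, 73.5% and 67.6%. Acta2 was thus most frequent in the Tnc-led wells, and Tagln nearly as frequent in the Inhba-led wells. In the pooled sums Tagln exceeded Acta2 in the Inhba-led cluster, at 2353 against 1510 CPM, and was below it in the Tnc-led cluster, at 1450 against 3573.

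The clusters were spread unevenly over the plates. Dpt-led wells made up 26 of 47 on FibCtrl 1 and 20 of 26 on FibCtrl 4, but 0 of 9 on FibCtrl 3 and 2 of 24 on FibΔZeb1 1. On FibΔZeb1 2 to 4 they made up 1 of 6, 6 of 17 and 9 of 15. The summed members followed this on some plates, with median wells of 4841 and 4131 CPM on FibCtrl 3 and FibΔZeb1 1 and of 503 on FibCtrl 4. Others did not follow it, as FibΔZeb1 2 had a median well of 1207 CPM, and FibΔZeb1 4 one of 2289 against 1652 on FibΔZeb1 3. The part of cluster makeup in the differences between plates was not tested.

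**Figure D4:**
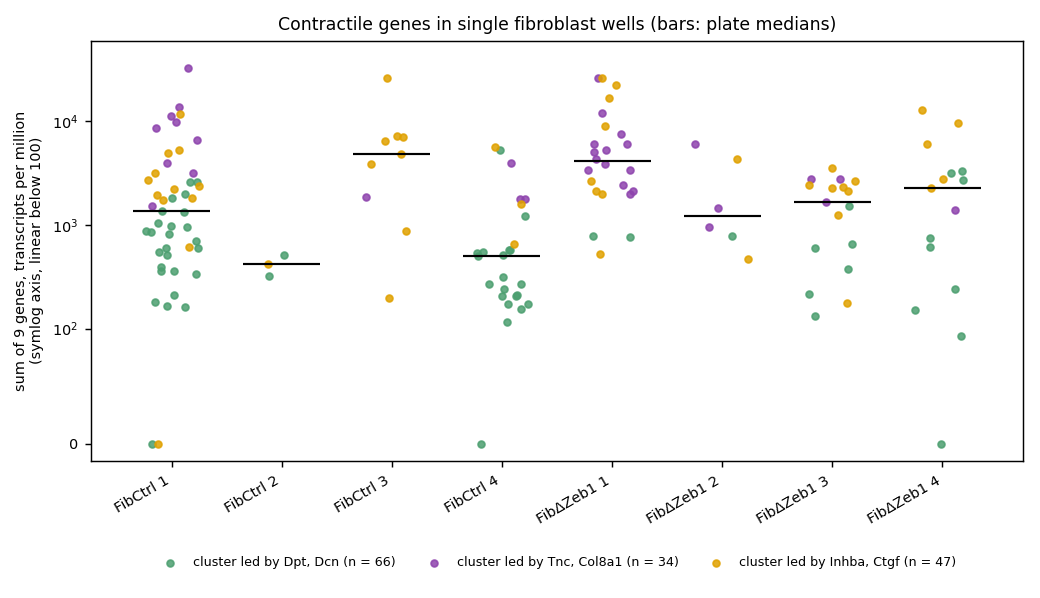
Sum of the 9 genes in each fibroblast-like well (vertical axis, CPM, symmetric log scale that is linear below 100) by plate, colored by the cluster's leading genes, with a black bar at the plate median. Dpt-led wells lie mostly below 1000, and the medians run from 423 on FibCtrl 2 to 4841 on FibCtrl 3.

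A few wells carried much of the transcripts. For each gene, the 15 of 147 wells with the most of its transcripts gave 77.6% of Acta2, 74.9% of Tagln, 90.6% of Actg2 and 54.0% of Tpm2. The highest well of all lay on FibCtrl 1 in the Tnc-led cluster, with 59611 transcripts and 32745 CPM in the 9 genes. It was the only one of the 6 highest wells in which all 9 were detected, with 1184 transcripts of Acta2, 288 of Tpm1, 259 of Tagln, 82 of Myl9, 69 of Tpm2, 33 of Myh11, 21 of Des, 14 of Cnn1 and 3 of Actg2. It also held 17 transcripts of Lmod1, a smooth muscle actin nucleator gene, 5 of Kcnmb1, 1941 of Col1a1 and none of Rgs5. This well gave 42.2% of the plate's Acta2, and without it the plate's Acta2 fell from 2776 to 1706.

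The next highest wells were of another kind. Those ranked 2, 3 and 4 lay on FibΔZeb1 1, FibCtrl 3 and FibΔZeb1 1, at 26353, 26268 and 26007 CPM. They held 44, 13 and 60 transcripts of Actg2 and 384, 73 and 253 of Tagln, with no Myh11 and no Cnn1. Actg2 with Tagln and without Myh11 or Cnn1 was thus found in high wells of both genotypes.

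The genotypes were compared for the 9 genes with plates as replicates. In fibroblast-like wells this left FibCtrl 1 and 4 against FibΔZeb1 1, 3 and 4, the plates with at least 10 wells. By the edgeR quasi-likelihood test with Benjamini-Hochberg adjustment over all 8217 genes tested, 0 of the 7 members tested were called at adjusted p under 0.05, where 0.0122% of all genes were called (1 gene, Aldh1a2). Myh11 and Cnn1 did not pass the filter on low counts. At an unadjusted p under 0.05 there was 1 member, Actg2, where 6% of all genes passed. DESeq2 called the same single member among 41 genes in all.

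Actg2 read 21.7 and 5.94 normalised CPM on FibCtrl 1 and 4 and 330, 39.7 and 84.6 on FibΔZeb1 1, 3 and 4. Every FibΔZeb1 plate lay above both FibCtrl plates, as was the case for 9.95% of all genes tested. The difference was 3.40 ± 0.97 (log2, SE), or 10.6-fold with a 95% interval of 2.24 to 49.8 and an adjusted p = 0.656 in the edgeR test. DESeq2 gave an adjusted p = 0.041.

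This difference leans on the choice of plates. FibCtrl 3, with 9 fibroblast-like wells, fell 1 short of the minimum and read 287 CPM, close to the highest FibΔZeb1 plate. When plates with at least 5 wells entered, the difference was 1.03 (edgeR adjusted p = 0.9998). Leaving out 1 plate at a time kept it between 2.01, without FibΔZeb1 1, and 4.66, without FibCtrl 1. Flow cells were read from the run identifiers of the deposited data, since no sample label names them. Plates numbered 1 and 2 of both genotypes shared the first, and plates numbered 3 and 4 the second. Within the first flow cell the ratio of FibΔZeb1 to FibCtrl was 15.2, with 1 plate each. Within the second it was 10.5, with 2 plates against 1. With a flow cell term the difference was 3.71 and passed the threshold (edgeR adjusted p = 0.0275).

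Cluster makeup moved with the same plates. In the Tnc-led cluster Actg2 read 41.9 CPM on FibCtrl 1 and 338 on FibΔZeb1 1, the only plates with at least 5 such wells. In the Inhba-led cluster it read 0 on FibCtrl 1 and 320 on FibCtrl 3, and 707, 171 and 212 on FibΔZeb1 1, 3 and 4. The FibCtrl 1 value stands on 40768 transcripts and allows up to 90.5 CPM. FibCtrl 3 lay among the FibΔZeb1 plates there. Its value holds the same 21 transcripts as its fibroblast-like sum, since 8 of the 9 wells were Inhba-led. It is therefore not a second observation.

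The other members gave smaller differences with wide errors, and none passed even the unadjusted threshold. On the log2 scale they were -0.11 ± 1.14 for Acta2, -0.73 ± 1.09 for Myl9, 0.66 ± 0.57 for Tpm1, 0.96 ± 0.49 for Tpm2, 0.56 ± 0.95 for Tagln and 0.70 ± 0.50 for Des. The 95% interval of the Acta2 ratio ran from 0.149 to 5.79, so neither a large rise nor a large fall can be seen or set aside at this number of plates. For Tpm2, which had the next lowest p after Actg2 (edgeR adjusted p = 0.880), the interval ran from 0.888 to 4.24. In all, 5 of the 7 members tested were higher in FibΔZeb1 and 2 lower, with a median of 0.66, against 51.6% of all genes higher and a median of 0.02.

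Acta2 turned with single plates. It read 2899 and 187 normalised CPM on FibCtrl 1 and 4 and 3105, 244 and 942 on FibΔZeb1 1, 3 and 4. Without FibCtrl 1 the difference was 2.94, and without FibΔZeb1 1 it was -1.41. The first flow cell gave a ratio of 1.07 and the second 3.17.

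**Figure D5:**
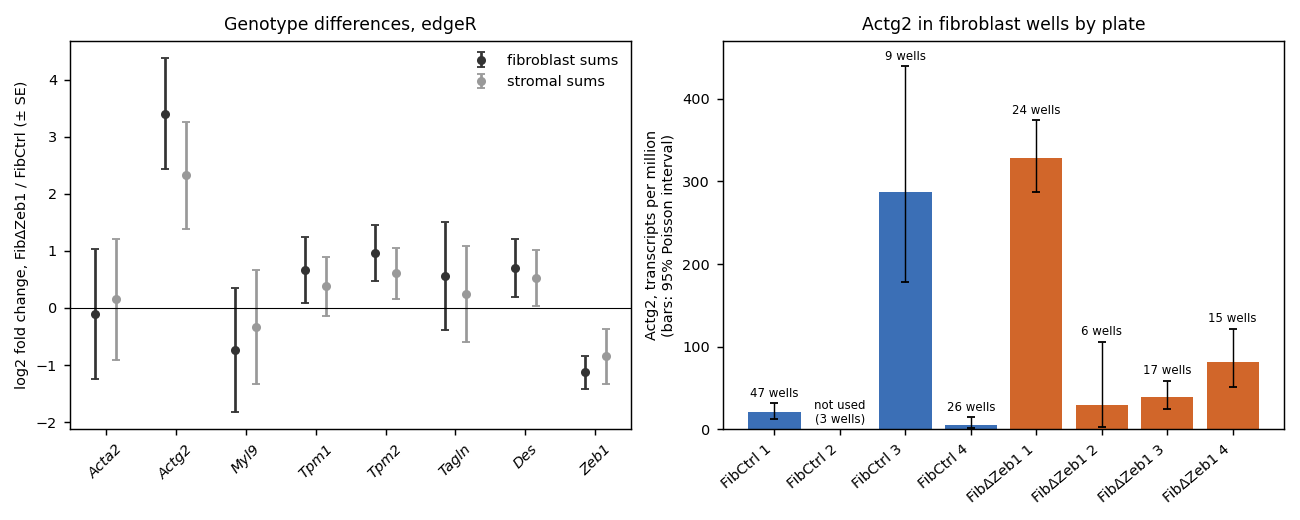
Left, log2 difference between FibΔZeb1 and FibCtrl with its standard error from edgeR for the 7 members tested and Zeb1, in fibroblast-like sums (5 plates, black) and stromal sums (6 plates, gray). Right, Actg2 in fibroblast-like wells per plate (CPM, bars from 0, with 95% Poisson intervals and the number of wells), where FibCtrl 3 at 287 stands near FibΔZeb1 1 at 329.

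Pooling all stromal wells brought FibCtrl 3 in and gave 3 plates per genotype. Again 0 of 7 members tested were called by edgeR, as was 0% of the 7726 genes, while DESeq2 called 1 gene and no member. Actg2 was the only member at an unadjusted p under 0.05, where 2.51% of all genes passed. It read 20.9, 66.3 and 5.99 on FibCtrl 1, 3 and 4 and 289, 36.0 and 84.4 on FibΔZeb1 1, 3 and 4. The groups overlapped, since FibCtrl 3 lay above FibΔZeb1 3. The difference was 2.32 ± 0.94 (log2, SE) with an adjusted p = 1 in edgeR.

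The other stromal differences ran from -0.33 for Myl9 to 0.60 for Tpm2, with 6 of 7 above 0, a median of 0.38, and no member with groups that did not overlap, where 4.1% of all genes had every FibΔZeb1 plate above and 3.4% every one below. Zeb1 fell by 1.13 on the log2 scale in fibroblast-like sums (SE 0.29, edgeR adjusted p = 0.474), with every FibΔZeb1 plate below both FibCtrl plates, as for 10.2% of all genes. In stromal sums its difference was -0.84 (adjusted p = 1 in edgeR).

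In epithelial-like wells, at which the Cre was not directed, all 8 plates entered and 3 members passed the filter. By edgeR 0 of the 3 were called, as was 0% of 10337 genes, and none had an unadjusted p under 0.05, where 1.88% of all genes did; DESeq2 called 1 gene and no member. Tpm1, the member that was above its immune-like level on every plate, read 239, 348, 232 and 198 normalised CPM on FibCtrl 1 to 4 and 343, 386, 237 and 171 on FibΔZeb1 1 to 4. The groups overlapped for all 3 genes, where 0.764% of all genes had every FibΔZeb1 plate above and 0.677% every one below. The Tpm1 difference was 0.17 ± 0.28 (log2, SE), a ratio of 1.12 with a 95% interval of 0.732 to 1.72. Acta2 and Tagln gave -0.18 ± 1.26 and -0.35 ± 1.16.

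Of the 59 other machinery genes, 43 were tested in fibroblast-like sums. By edgeR 0 were called at adjusted p under 0.05. At an unadjusted p under 0.05 there were 3 genes, all higher in FibΔZeb1, where 6% of all genes passed. They were Smtn, the smooth muscle gene for smoothelin (0.76 ± 0.26), Hspb1 (0.89 ± 0.27) and the transcription factor gene Tead1 (0.77 ± 0.26), named after their values were seen. Of the 43 genes, 36 were higher and 7 lower in FibΔZeb1 (median 0.24), where 51.6% of all genes were higher. All FibΔZeb1 plates lay above both FibCtrl plates for 7 of the 43 and below for 1, beside the 9.95% and 10.2% of all genes. In stromal sums 32 of 43 were higher (median 0.18, 50% of all genes), and in epithelial-like wells 14 of 39 (median -0.08, 51% of all genes). No gene of the list was called by edgeR in either of these, and none had an unadjusted p under 0.05.

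In pericyte-like wells each genotype had 1 plate, so no test was possible. The sum of the 9 genes was 2420 CPM on FibCtrl 1 (8 wells) and 6290 on FibΔZeb1 1 (14 wells), and all 9 genes were higher on FibΔZeb1 1. Cnn1 rested there on 2 transcripts against 0, and 1 well gave 102 of the 196 Tagln transcripts of FibΔZeb1 1. In mesothelial-like wells the sum was 2775 on FibCtrl 3 (10 wells) and 507 on FibΔZeb1 4 (9 wells), and all 9 genes were lower on FibΔZeb1 4. Actg2 rested there on 1 transcript against 0. The share of all genes that ran the same way between these plates was not counted, so the member counts have no background. Each comparison is between 2 plates, not genotypes, and the directions were opposite. The mesothelial-like plates differed little in markers of their own class, which summed to 1197 and 1435 at the lower and higher plate.

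Likeness was taken over 50 sums of a class on a plate with at least 5 wells, with the immune-like wells split by cell type. Among 11885 genes, those whose log2(CPM + 10) ran most like the sum of the 9 members were Col4a1 (r = 0.89), Col8a1 (0.879), Sparc (0.865), Piezo2 (0.864), Col4a2 (0.852), Serpinh1 (0.851), Gpr176 (0.85) and Cald1 (0.85). The sums share plates, and part of the pattern is the split between stromal and other classes. Of single members, Myh11 ran most like Foxc2 (0.753) and Rgs5 (0.697), Actg2 like Col10a1 (0.807), and Tagln like Sparc (0.856).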

How the data were processed

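SORT-seq libraries from 8 plates of sorted single cells were used, 4 FibCtrl and 4 FibΔZeb1, 1 mouse each. The alleles of the transplanted organoids are not reported here. The deposited tables hold 1 estimated count per gene and well. The authors had the provider process the reads, which assigned reads to wells, aligned them with BWA to the Ensembl transcriptome of GRCm38, and corrected the UMI counts for collisions between identical UMIs. With a UMI pool of 4096, 86.3% of the values were whole and 100% came within 0.2 of a whole UMI number once the correction was inverted. The submitters' processing notes also name Cell Ranger 2.1.1. Counting by strand and the annotation release are not given in the sources used here. There were 0 columns of other series.

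Spike-in rows (9.15% of transcripts) and mitochondrial rows (13.4%) stayed out of totals. Wells needed at least 500 transcripts and a mitochondrial share within 3 median absolute deviations of the plate's median. Total cell transcripts per plate ranged from 981881 to 5905188. Wells were clustered without the 9 members (2000 variable genes, 20 principal components, 15 neighbours, Leiden resolution 1, igraph 0.11.9, leidenalg 0.10.2, scikit-learn 1.9.0, Python 3.11.15) into 24 clusters, of which 19 were named. A name needed a marker score of at least 0.5 and 3 markers each in 10% of the wells. Both limits were chosen with the clusters in view. No doublet caller was run, since 1 cell was sorted per well.

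Levels are sums per class and plate in CPM, given for plates with at least 5 wells, with exact Poisson intervals at 95%. Intervals and the limits that a count of 0 allows (3 counts) cover counting error only. Genotypes were compared on rounded sums of the estimated counts per plate with at least 10 wells, by edgeR's quasi-likelihood test (edgeR 4.0.16, R 4.3.3) with TMM scaling and the default expression filter, two-sided, with Benjamini-Hochberg adjustment over all genes tested and a threshold of 0.05. DESeq2 1.42.0 was an alternative, as were no expression filter, other limits on wells, classes from marker sums, a flow cell term, a replicate block and leaving out each plate. The fits were tested on simulated data. The study's own comparisons were made among cells, and plates were used here as the replicates instead. The replicate numbers were not taken to pair the mice, since no label names a shared litter or day. The 9 correlations of same-numbered deviations ran from -0.169 to 0.622, and 3 of them did not exceed 0.1. Whether same-numbered plates share a batch was not tested, and the replicate block is given as an alternative only.

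The members and lists were chosen with earlier results of these data known. The machinery genes named are the 3 highest in stromal wells for each role. Genes most like the members were ranked by Pearson's r over sums of a class on a plate with at least 5 wells. Immune-like wells were split by cell type for this, and genes needed at least 100 transcripts. Promoters are from RefSeq (GRCm38.p6) and gene positions from GENCODE M21 (GRCm38).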

Additional observations from a re-analysis of the deposited data

Results flagged for a closer look

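In 12 of 48 groups of 4 plates tested, each a member in a class of 1 genotype, 1 plate stood apart by Dixon's 95% limit, where chance flags about 1 in 20. Most rested on very few transcripts. A single transcript set Cnn1 in epithelial-like wells of FibCtrl 1 (0.34 CPM), fibroblast-like wells of FibΔZeb1 4 (3.53), immune-like wells of FibCtrl 3 (2.25) and of FibΔZeb1 4 (2.95), and Myh11 in fibroblast-like wells of FibΔZeb1 1 (1.45), with the other plates at 0. Actg2 stood at 1.02 CPM in epithelial-like wells of FibCtrl 1 (3 transcripts) and 8.43 in immune-like wells of FibCtrl 4 (5 transcripts), with the other plates at 0.

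The larger ones lay mostly on plates with high stromal RNA in other classes. Acta2 in epithelial-like wells read 288 CPM on FibCtrl 1, against 4.59 to 22.7 on the other FibCtrl plates. Tagln in immune-like wells read 62.3 on FibCtrl 1 (42 transcripts), against 0 to 8.43. Actg2 in epithelial-like wells read 9.91 on FibΔZeb1 1 (15 transcripts), against 0 to 1.43. Col1a1 in epithelial-like wells was highest on the same 2 plates, at 626 and 418 CPM, and its part in these values was not tested.

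Des stood apart on FibCtrl 4 in cells that should lack it, at 27.0 CPM in immune-like wells (16 transcripts, others 0 to 2.97) and 5.82 in epithelial-like wells (10 transcripts, others 0 to 0.73). The same plate held 5 unnamed wells, outside all comparisons, with 676 Des transcripts. These wells, of 622 to 10787 transcripts each, also held 474 of Acta1 and 129 of Tnnt3, both genes of striated muscle, 554 of Xirp2 and 30 of Ckm, the muscle creatine kinase gene. They held 190 transcripts of Tpm2 and 125 of Tpm1, but 1 of Acta2 and 0 of Tagln, Myh11, Actg2, Cnn1, Myl9 and the smooth muscle gene Synpo2. Des, Tpm1 and Tpm2 were thus found there with striated muscle genes and not with the other 6 members.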

How the results depend on the processing

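Over 38 results and 455 alternatives, 385 kept their direction and side of the threshold or stayed within the spread, 32 moved, 34 reversed and 4 passed the threshold newly. In fibroblast-like wells the number of genes called by edgeR was 1, and it was 41 under DESeq2, 329 without an expression filter, 26 with a flow cell term, 0 with classes from marker sums, 0 with the Ptprc or Epcam wells kept, and 0 to 7 when plates were left out, with 0 without FibΔZeb1 1 and 7 without FibCtrl 1. The number of members called was 0, and it was 1 under DESeq2 and 1 with a flow cell term (Actg2 in both) and 2 without a filter (Actg2 and Myh11). In stromal and in epithelial-like wells the number of genes called was 0, and DESeq2 called 1 in each. Actg2 in fibroblast-like wells ran from 1.03, with plates of at least 5 wells, to 3.88, and from 2.01 to 4.66 when plates were left out. In stromal wells it ran from 1.09 to 3.26 when plates were left out. The cause of these changes was not tested.

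With a replicate block the genes called in fibroblast-like wells numbered 61 and the members called 1, Actg2 (3.88, edgeR adjusted p = 0.0013). The log2 difference of Acta2 became 1.18, that of Myl9 0.24 and, in epithelial-like wells, that of Acta2 0.11. The labels do not say what same-numbered plates share, and this was not tested. Correlations of same-numbered deviations were 0.379 and 0.179 in fibroblast-like wells and 0.328, -0.169 and 0.078 in stromal wells. In epithelial-like wells they were 0.622, 0.324, 0.278 and 0.084.

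Other reversals were in small differences. In fibroblast-like wells Acta2 became 0.93 with a flow cell term, and Tagln -0.49 without the mitochondrial filter, -0.83 with plates of at least 5 wells and -0.37 with classes from marker sums. In stromal wells Acta2 became -0.14 with plates of at least 5 wells and -0.059 with the Ptprc or Epcam wells kept, and Tagln -0.087 and, with classes from marker sums, -0.16. When plates were left out, fibroblast-like differences ran from -1.41 to 2.94 for Acta2, -2.004 to 2.18 for Myl9, -0.0028 to 1.91 for Tpm1 and -0.30 to 2.92 for Tagln. Stromal ones ran from -1.26 to 1.36 for Acta2, -1.53 to 0.58 for Myl9, -0.021 to 0.69 for Tpm1, -0.68 to 0.68 for Tagln and -0.053 to 0.85 for Des. Epithelial-like ones ran from -1.95 to 2.45 for Acta2, -0.015 to 0.35 for Tpm1 and -0.98 to 1.53 for Tagln.

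At 5000 transcripts per well the mean number of members was 2.96 in fibroblast-like, 4.68 in pericyte-like, 2.71 in mesothelial-like, 1.08 in epithelial-like and 0.82 in immune-like wells, and pericyte-like wells held 2.50 at 1000. At 1000 transcripts 707 immune-like wells entered, and 1 of them held 6 members, where none held 5 or more at 2000. The summed level in fibroblast-like wells stayed between 3095 and 3579 CPM. With classes from marker sums no plate had 5 mesothelial-like wells, so no level could be given. The few plates with enough stromal wells limit the genotype comparisons.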

Other observations

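Within the class of fibroblast-like wells, the thinned mean number of members per plate was 1.82, 2.56 and 1.0 on FibCtrl 1, 3 and 4 and 3.52, 2.50, 1.82 and 1.93 on FibΔZeb1 1 to 4. Actg2 was found in none of the 40 thinned wells of FibCtrl 1 and none of the 26 of FibCtrl 4, in 22.2% of those of FibCtrl 3, and in 28.6%, 16.7%, 17.7% and 7.14% of those of FibΔZeb1 1 to 4. Within the Dpt-led cluster, Acta2 read 449 and 50.0 CPM on FibCtrl 1 and 4 and 64.7 and 643 on FibΔZeb1 3 and 4. The FibCtrl plates thus differed widely at the same cluster. The FibΔZeb1 4 value rests on 121 transcripts in 4 of 9 wells, 107 of them in 1 well.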
